A study of Rattus norvegicus with 18 samples.

Results

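Akr1c2 and Srd5a1, a pair of liver genes named for steroid reduction, are 2 of the 33657 genes in the deposited expression table. They were taken by symbol, and each symbol has 1 row. Both were chosen from values measured in these libraries, Akr1c2 for a large rise in the obese control and Srd5a1 for a fall with plantain dose, so their levels are given as a description, with no p-value. The 18 libraries, 3 in each of 6 groups, were made from the livers of male rats 18 weeks of age. The normal control was healthy and the other 5 groups were labelled obese. Both controls received water, the positive control received orlistat, a lipase inhibitor used against obesity, and the remaining 3 groups ate plantain (low, medium and high dose). The labels give neither the strain, nor the way obesity was brought about, nor the amounts. Nothing in them says whether the 3 libraries per group are different animals, so the p-values reflect spread between libraries, which may be technical.

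Steroid hormones that reach the liver are inactivated there by reduction of the A ring, followed by hydroxylation or conjugation. Srd5a1 encodes steroid 5α-reductase type 1, which uses NADPH to reduce testosterone, progesterone and glucocorticoids, and in rat liver it is known for higher activity in females. The aldo-keto reductases of the Akr1c family act next, reducing or oxidising the 3-, 17- or 20-position of steroids and other carbonyls. In humans AKR1C2 is a 3α-hydroxysteroid dehydrogenase that reduces dihydrotestosterone; the substrates of the product of the rat row named Akr1c2 are not stated in the labels or files, and RefSeq lists Akr1c21 and RAKg as its synonyms.

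Akr1c2 (ENSRNOG00000029844) lies at 69388335 to 69404341 on the minus strand of chromosome 17, as the deposited file gives it, with the build not named. Srd5a1 (ENSRNOG00000017601) lies at 36320461 to 36354756 on the plus strand of chromosome 1. Their start regions are shown because the 2 genes differ widely in them. The sequences are the 250 bases before the RefSeq start on GRCr8, chr17:70717881-70718130 (minus strand) for Akr1c2 and chr1:35514664-35514913 (plus strand) for Srd5a1, 5′ to 3′ along the gene; both symbols matched.
Akr1c2: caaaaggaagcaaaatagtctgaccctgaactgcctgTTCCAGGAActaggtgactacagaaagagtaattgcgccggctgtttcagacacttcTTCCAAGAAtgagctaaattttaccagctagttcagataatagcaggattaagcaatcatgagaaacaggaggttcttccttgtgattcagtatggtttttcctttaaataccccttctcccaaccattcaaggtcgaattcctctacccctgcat
Srd5a1: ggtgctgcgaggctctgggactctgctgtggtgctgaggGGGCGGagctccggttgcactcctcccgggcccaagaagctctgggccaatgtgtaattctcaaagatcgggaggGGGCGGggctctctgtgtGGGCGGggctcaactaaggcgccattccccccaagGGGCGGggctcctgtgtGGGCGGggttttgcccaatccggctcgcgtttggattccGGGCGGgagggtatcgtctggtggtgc
Capitals mark the motifs that were found on either strand. In the Akr1c2 window they are 2 matches of TTCNNNGAA, the element that STAT5 binds, at -213 and -156 from the start. Of 33469 RefSeq windows of this length, 7.67% hold at least 1 such match and 0.418% hold at least 2. In the Srd5a1 window they are 6 GC boxes (GGGCGG), which 30.5% of windows hold at least once and 0.825% hold at least 6 times. The Srd5a1 window has a GC content of 66.4% and the Akr1c2 window one of 42.4%. An E-box (CACGTG), the core of the antioxidant response element (TGACNNNGC), a TATA box (TATAAA) and a steroid receptor half-site (TGTTCT) had no match in either window. These matches describe letters only. RefSeq spans 48252 bases for Akr1c2 and the deposited row spans 16007, so the RefSeq start may belong to another first exon than the row counted here.

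Akr1c2 was low in the normal control, 6383rd of 11945 tested genes by level, and 640th in the obese control. Levels are FPKM, fragments per kilobase of gene and mega (M) of sequenced fragments, and the 3 normal control libraries held 4.42, 5.35 and 5.18. In the obese control the libraries held 101, 105 and 102 FPKM. The means were 4.98 ± 0.50 and 103 ± 2.40 (SD, n = 3), a 20.6-fold difference, or 4.12 on the scale of log2(FPKM + 1) that is used for all differences below. That was the largest of the 11945 genes tested in this comparison (those with at least 1 FPKM in at least 3 libraries), and the next in order, Cldn1, named only for that place, differed by 3.39.

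Every treated group held Akr1c2 far below the obese control. With orlistat the libraries held 10.6, 11.1 and 11.1 FPKM. At the low dose of plantain they held 19.7, 20.3 and 21.5, at the medium dose 7.88, 8.93 and 8.53, and at the high dose 17.4, 15.8 and 14.5. All 12 treated libraries lay between the highest normal control library and the lowest obese control library. The differences from the obese control were -3.12 with orlistat, -2.27 at the low dose, -3.46 at the medium dose and -2.62 at the high dose. They were the lowest of all tested genes at the medium dose, the 2nd lowest with orlistat and the 3rd lowest at the low and high doses.

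The dose with the least Akr1c2 was the medium one, so its level did not follow the order of the doses. From highest to lowest the groups ran obese control, low dose, high dose, orlistat, medium dose and normal control. The obese control was 5.01-fold above the low dose, and the further steps were 1.29-, 1.45-, 1.30- and 1.70-fold. Ranges did not overlap in any of the 15 pairs of groups. Among all tested genes the share without overlap was 62.5% for obese against normal control, 58.2% for orlistat, 44.8% for the low dose, 49.2% for the medium dose and 57.8% for the high dose, each set against the obese control. Against the normal control it was 55.0% for orlistat and 57.6%, 53.3% and 53.4% for the low, medium and high doses. Orlistat was apart from the low, medium and high doses in 47.7%, 38.3% and 30.6% of genes, and the low dose from the medium and high doses in 35.5% and 44.5%. A lack of overlap alone is thus common here. Behind the values stood 158 to 188 reads per library in the normal control and 2590 to 3418 in the obese control.

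**Figure D1:**
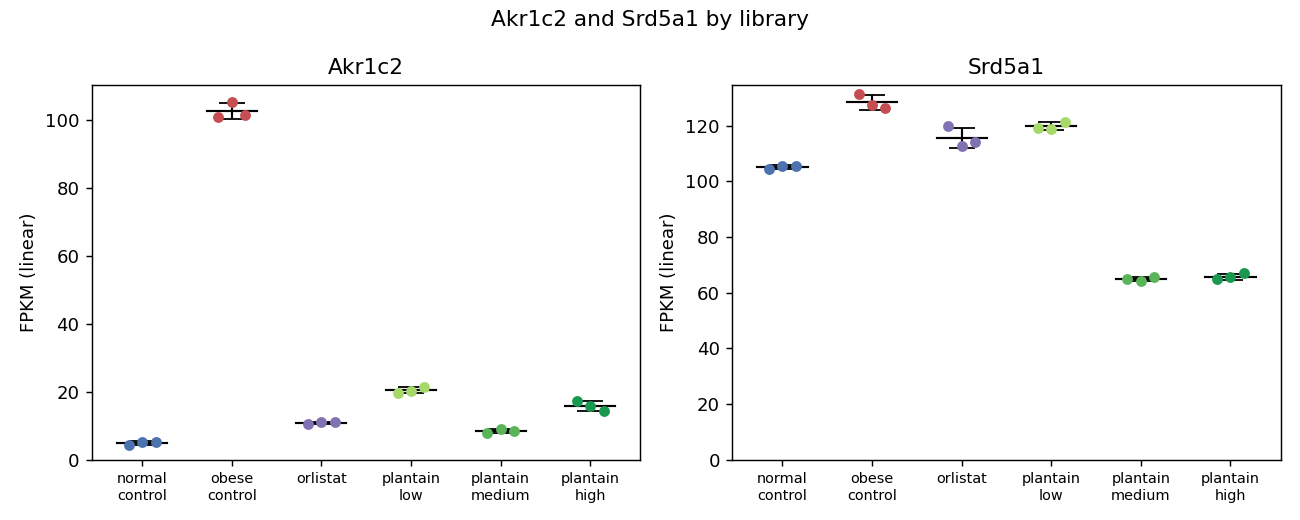
FPKM of Akr1c2 (left) and Srd5a1 (right) on linear axes from 0, 1 point per library, with the mean (long bar) and SD (error bar) of each group of 3. The obese control libraries of Akr1c2 lie at 101 to 105 and all others at 21.5 or less, while Srd5a1 separates the medium and high doses, at 64.3 to 66.9, from the other 4 groups, at 104 to 131.

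Rat Akr1c genes lie side by side on chromosome 17 and are close copies, so reads may be shared between their rows; that was not tested. The 9 rows whose symbols begin with Akr1c summed to 1082 ± 17.9 FPKM in the normal control and 1040 ± 3.77 in the obese control (SD, n = 3). In the treated groups the sums were 1030 ± 25.3 with orlistat, 1013 ± 12.1 at the low dose, 999 ± 40.6 at the medium dose and 1017 ± 6.13 at the high dose. The sum thus moved by far less than Akr1c2 itself, whose share of it was 0.461% in the normal control, 9.87% in the obese control and between 0.848% and 2.02% in the treated groups. Without Akr1c2 the family held 1077 ± 18.4 FPKM in the normal control and 938 ± 4.10 in the obese control, a lower level by more than the replicate spread.

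Of the 8 relatives in the table, Akr1c12l1 stayed below the filter and the other 7 were tested with limma. In the obese control 1 relative rose and 2 fell (adjusted p under 0.05), where 55.1% of all tested genes were called. Akr1c13 rose by 0.31, while Akr1c14, the rat 3α-hydroxysteroid dehydrogenase, changed by -0.31 and Akr1c12 by -0.16. Akr1c14 and Akr1c12 are the abundant members, at 529 ± 10.7 and 436 ± 6.07 FPKM in the normal control and 426 ± 3.60 and 391 ± 3.82 in the obese control. No relative rose with Akr1c2 to a like extent. Rescaled to TPM, where each library has the same sum, 1 relative was higher and 5 were lower. On that scale 1973 of all 11945 tested genes were higher and 4569 lower.

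Against the obese control 4 relatives rose and 3 fell with orlistat, 3 and 3 at the low dose, 3 and 3 at the medium dose, and 3 and 2 at the high dose. The shares of all tested genes called were 51.8%, 33.0%, 41.9% and 51.9%. Akr1c1, the nearest relative by position, fell in all 4 treated groups, by 0.53 with orlistat, 0.41 at the low dose, 0.69 at the medium dose and 0.73 at the high dose (limma adjusted p between 1.9e-09 and 3.1e-06). Akr1c19 fell in the same groups, by 0.56, 0.50, 0.33 and 0.54. Akr1c15 rose by 0.66 with orlistat and 0.72 at the high dose; its rises of 0.48 at the low and 0.49 at the medium dose were lost without obese control replicate 1 (adjusted p = 0.079 and 0.061), and also without low dose replicate 3 (0.052) and medium dose replicate 1 (0.059). Akr1c14 rose by 0.24 with orlistat, and Akr1c13 fell by 0.65 there. Akr1e2, on the other side of Akr1c2, differed by 0.02 between the controls (limma adjusted p = 0.54). RGD1564865, the row next to Akr1c1 and named after its values were seen, differed by -0.51 between the controls, opposite to Akr1c2.

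**Figure D2:**
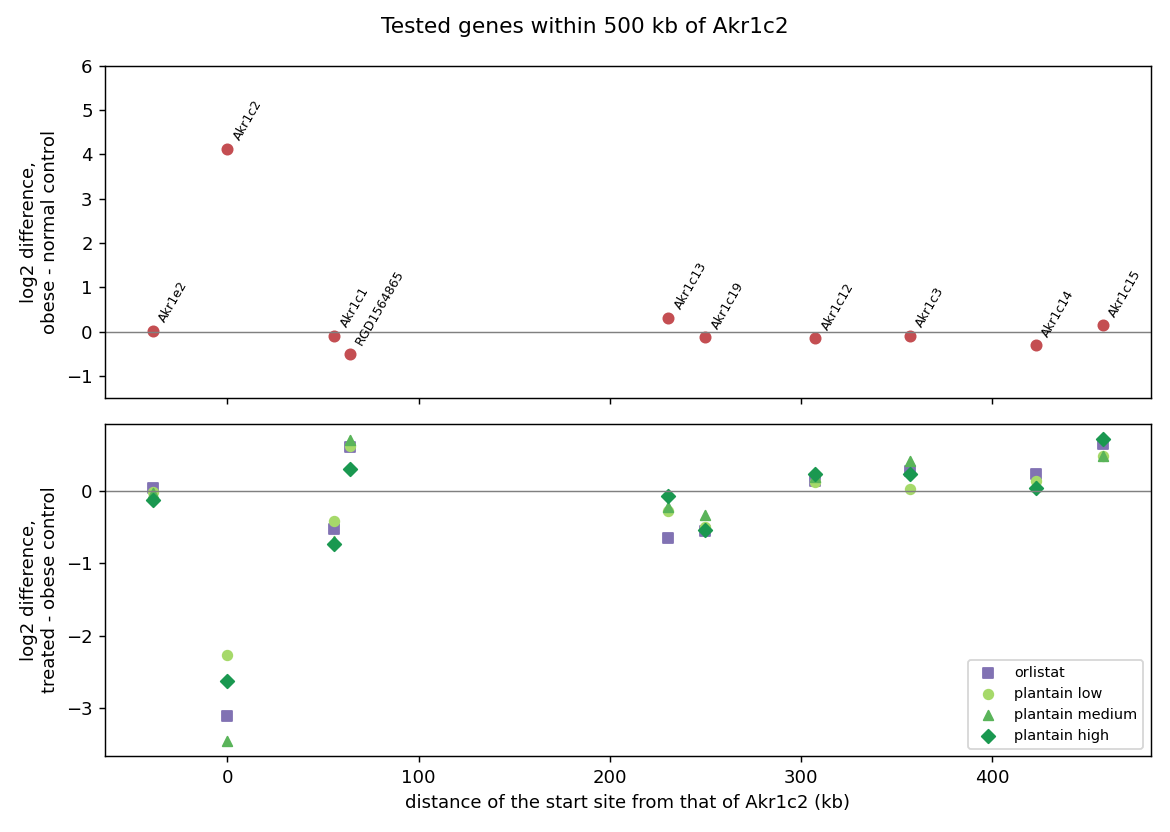
Difference in log2(FPKM + 1) of each tested gene with a symbol within 500 kb of Akr1c2, against the distance of its start site from that of Akr1c2 in kb; top, obese minus normal control, bottom, each treated group minus the obese control. Akr1c2 stands at 4.12 in the top panel while its neighbours lie between -0.51 and 0.31, and it is the lowest point of every treated group in the bottom panel.

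Srd5a1 had a narrower range, with the medium and high doses set apart. The normal control libraries held 104, 106 and 105 FPKM and the obese control libraries 131, 127 and 126. With orlistat they held 120, 113 and 114, and at the low dose 119, 119 and 121. The medium dose libraries held 64.9, 64.3 and 65.8 and the high dose libraries 64.8, 65.5 and 66.9. The highest of these 6 libraries was well below the lowest library of any other group, the normal control included.

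Group means were 105 ± 0.66 FPKM in the normal control, 128 ± 2.56 in the obese control, 116 ± 3.63 with orlistat, 120 ± 1.42 at the low dose, 65.0 ± 0.76 at the medium dose and 65.7 ± 1.12 at the high dose (SD, n = 3). Against the obese control the differences were -0.10 at the low dose, -0.97 at the medium dose and -0.95 at the high dose, so the level stepped down between the low and medium doses and did not go further. Ranges of the medium and high doses overlapped, as did those of orlistat and the low dose, and the other 13 of 15 pairs did not. Between the medium and high doses 33.8% of all tested genes did not overlap. The obese control stood 0.28 above the normal control. Orlistat minus obese control was -0.15 in the deposited FPKM but 0.02 after rescaling to TPM, so no direction is given for it. That rescaling moved the median of all tested genes by -0.11 (obese against normal control), by 0.15 (orlistat) and by 0.15 (high dose). Relative to the median, the TPM differences of Srd5a1 were 0.27, -0.12 and -0.93, and those of Akr1c2 were 4.21, -3.14 and -2.63. On the TPM scale the medium and high doses no longer overlapped, at 115 ± 2.88 and 123 ± 2.12. The slope over the obese control and the 3 doses, the value Srd5a1 was chosen for, was -0.37 per step, the 106th lowest of 11945 genes. For this slope 52.5% of tested genes were called, 26.5% higher and 26.0% lower. The rows rest on 3098 to 8155 reads per library.

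In the deposited FPKM both members were highest in the obese control. In TPM Srd5a1 was 212 ± 4.31 there and 215 ± 9.72 with orlistat, with ranges that overlapped, so its highest group depends on the scale. High dose minus orlistat was 0.49 for Akr1c2 and -0.80 for Srd5a1. Over the 18 libraries Pearson's r of their log2 values was 0.43, and without the normal control, over 15 libraries, it was 0.59; the points share groups and scaling, so this is a description. Between genes FPKM is comparable per length, and by it Srd5a1 exceeded Akr1c2 in every group, by least in the obese control (128 against 103).

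No gene in the table overlaps Akr1c2. The small RNA row RF00399 lies within Srd5a1, and with 0 to 8 reads per library it took few reads. Nsun2, an RNA methyltransferase gene named here for its place, starts at -0.495 kb from Srd5a1 and runs in the opposite direction, and it differed by -0.43 between the controls (limma adjusted p = 1.1e-05), opposite to Srd5a1. Against the obese control Nsun2 differed by 0.09 with orlistat and by 0.18, 0.01 and 0.08 at the low, medium and high doses (limma adjusted p = 0.19, 0.023, 0.86 and 0.29). Whether reads were counted by strand is not stated in the labels or files.

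The counterpart of Srd5a1 is Akr1d1, the 5β-reductase, which also serves bile acid synthesis. Its mean was 779 ± 11.2 FPKM in the normal control and 447 ± 4.27 in the obese control (SD, n = 3), opposite in direction to Srd5a1. It was 670 ± 6.37 with orlistat, 749 ± 7.67 at the low dose, 528 ± 23.0 at the medium dose and 697 ± 3.44 at the high dose. By limma Akr1d1 fell by 0.80 in the obese control (SE 0.02, adjusted p = 1.5e-13) and rose in each treated group, by 0.58, 0.74, 0.24 and 0.64 in the order above. The ratio of Srd5a1 to Akr1d1, which is free of library scaling, was 0.135 ± 0.002 in the normal control and 0.287 ± 0.004 in the obese control. It was 0.172 ± 0.006 with orlistat, 0.160 ± 0.003 at the low dose, 0.123 ± 0.005 at the medium dose and 0.0942 ± 0.001 at the high dose, so here the 3 doses did follow in order and their ranges did not overlap. From the medium to the high dose Srd5a1 stayed at 65.0 and 65.7 FPKM while Akr1d1 went from 528 to 697, so that step of the ratio lay in Akr1d1. Since Srd5a1 was chosen for its fall, the order of the ratio is a description.

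**Figure D3:**
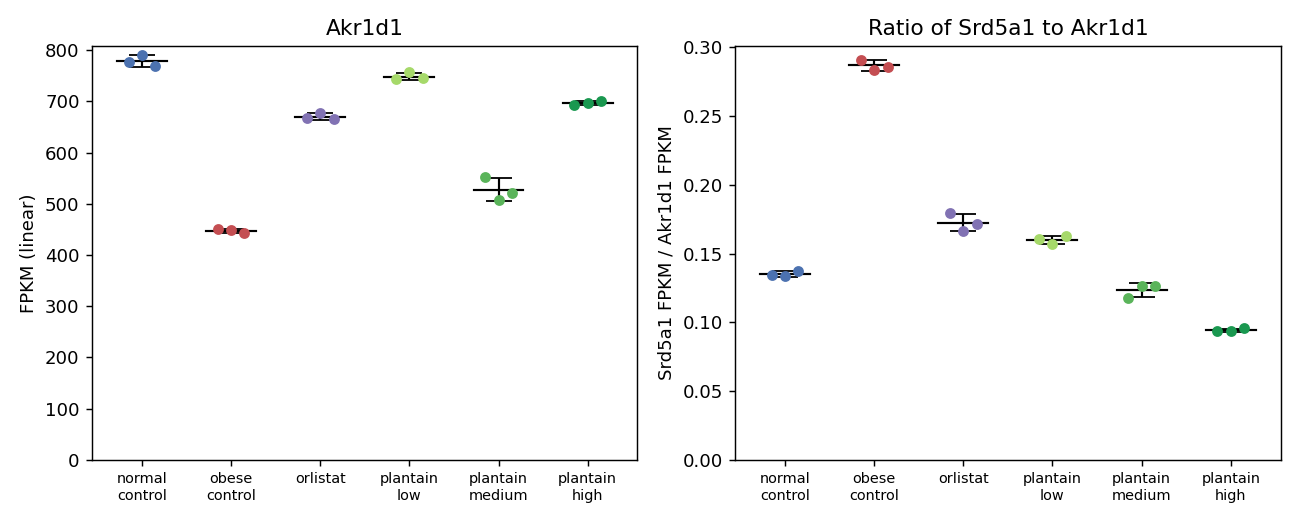
Akr1d1 in FPKM (left) and the ratio of Srd5a1 to Akr1d1 FPKM (right), linear axes from 0, 1 point per library with mean and SD of 3. Akr1d1 is lowest in the obese control (447) and highest in the normal control (779); the ratio is highest in the obese control (0.287) and falls from 0.160 at the low dose to 0.0942 at the high dose.

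Srd5a1 was the only abundant 5α-reductase row. Srd5a2, the type 2 enzyme of genital tissue, was listed at 0 in all 18 libraries. Srd5a3, a polyprenol reductase of protein glycosylation, stayed between 1.63 and 2.40 FPKM in group means; it rose by 0.35 at the medium dose (limma adjusted p = 0.0025). Its difference of 0.22 at the high dose (adjusted p = 0.031) was lost without obese control replicate 1 or 2 or high dose replicate 2 or 3 (adjusted p from 0.063 to 0.12). Tecr, the related enoyl reductase of very long-chain fatty acids, fell by 0.17 in the obese control. At the high dose Tecr fell by 0.17 in the deposited FPKM, but stood at 0.0064 in TPM (limma adjusted p = 0.90).

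Most other genes of steroid handling passed the test in 1 direction or the other. Of 135 symbols listed, 111 were in the table and 97 were tested. These numbers leave out both members. The lists were chosen with earlier results of these data known, so their shares are given as a description. Of the 97, 77.3% were called in the obese control, 74.2% with orlistat, 75.3% at the low dose, 70.1% at the medium dose and 75.3% at the high dose. In the obese control 31 were higher and 44 lower, against 26.7% and 28.4% of all tested genes, and 22 and 58 after rescaling to TPM. The counts higher and lower were 38 and 34 with orlistat, 41 and 32 at the low dose, 37 and 31 at the medium dose, and 42 and 31 at the high dose. Of all tested genes 26.2% and 25.6%, 18.3% and 14.8%, 21.8% and 20.1%, and 26.6% and 25.3% were called in those directions. After rescaling to TPM the counts became 59 and 21, 44 and 25, 49 and 26, and 61 and 16. TPM also shifted the calls over all 11945 tested genes, with 4989 higher and 1566 lower for orlistat. At the low, medium and high doses these were 2675 and 1302, 3748 and 1440, and 5176 and 1476. In the obese control they were 1973 and 4569. The TPM counts of single lists below share this general shift. For high dose against orlistat 31 were higher and 26 lower, where 8.45% and 6.67% of all tested genes were.

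Hydroxysteroid dehydrogenases, which oxidise or reduce the steroid hydroxyl groups, were mostly lower in the obese control: 4 of 16 rose and 9 fell, with a median of -0.14 (1 and 12 after rescaling to TPM). The median of all tested genes lay between -0.01 and 0.01 in every comparison. With orlistat 8 rose and 5 fell (12 and 1 in TPM), at the low dose 11 and 2, at the medium dose 9 and 2, and at the high dose 11 and 3. The share called was 81.25% in the obese control, 81.25% with orlistat and 81.25%, 68.75% and 87.5% at the 3 doses. All tested genes had shares of 55.1%, 51.8%, 33.0%, 41.9% and 51.9% in the same order. Hsd17b2, which oxidises testosterone and oestradiol, fell by 1.05 in the obese control, from 807 ± 6.02 to 389 ± 5.95 FPKM, and rose by 0.28 with orlistat and by 0.36, 0.54 and 0.66 at the low, medium and high doses. Hsd17b6, which acts on androstanediol, ran the other way: it rose by 0.62 in the obese control and fell by 0.58 at the medium and 0.73 at the high dose.

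Steroid-hydroxylating cytochromes and their electron donor were likewise lower in the obese control, 4 of 16 rising and 9 falling (median -0.18). Por, which passes electrons from NADPH to these enzymes, fell by 1.57 there and rose by 0.64 with orlistat and 0.56, 0.76 and 0.90 at the 3 doses. Cyp2c11, the main male testosterone hydroxylase of rat liver, fell by 1.34 and Cyp3a9 by 2.00 in the obese control. Cyp2c11 held 527 FPKM there, 524 with orlistat and 509, 628 and 660 at the low, medium and high doses, with 1338 in the normal control. Cyp3a9 held 7.81, 14.6, 10.1, 10.7 and 7.79 in the same groups, with 34.2 in the normal control. Of the 16 genes of this list, electron donor included, 7 rose and 2 fell with orlistat against the obese control (13 and 1 in TPM). At the low, medium and high doses 12 rose and 2 fell, 10 and 1, and 9 and 2 (13 and 1 in TPM at the high dose). The share called was 81.25% in the obese control, 56.25% with orlistat and 87.5%, 68.75% and 68.75% at the 3 doses. Among all tested genes it was 55.1%, 51.8%, 33.0%, 41.9% and 51.9% in the same order. Cyp7b1, an oxysterol and steroid 7α-hydroxylase, rose by 1.74 with orlistat, and Cyp3a18 rose by 0.68 at the medium and 0.88 at the high dose.

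Conjugating enzymes make reduced steroids soluble. In the obese control 3 of 9 rose and 5 fell (2 and 7 in TPM). With orlistat 4 rose and 0 fell by limma (also 4 and 0 at an unadjusted p under 0.05, and 8 and 0 with voom), and 9 rose after rescaling to TPM. At the low, medium and high doses 5 rose and 3 fell, 4 and 3, and 4 and 2. In TPM these were 5 and 1, 5 and 2, and 7 and 0. The share called was 88.9% in the obese control, 44.4% with orlistat and 88.9%, 77.8% and 66.7% at the 3 doses. Among all tested genes it was 55.1%, 51.8%, 33.0%, 41.9% and 51.9% in the same order. With orlistat the list lay below all genes in the deposited FPKM, but 8 of 9 were called with voom and 9 of 9 in TPM. Of all 11945 tested genes, voom called 4095 higher and 2137 lower there, and TPM gave 4989 and 1566. The place of the list with orlistat thus depends on the scale. Ugt2b17, which glucuronidates androgens, fell by 0.97 in the obese control and rose by 0.85, 1.12, 1.02 and 1.11 with orlistat and the low, medium and high doses. Sult1a1, a phenol sulfotransferase, fell by 0.46 in the obese control and rose by 0.40 with orlistat. Of the 9 genes that supply NADPH, the cofactor of both members, 1 rose and 6 fell in the obese control (median -0.56; 0 and 8 in TPM), among them Mthfd1 by 0.90 and malic enzyme Me1 by 0.73, and Me1 fell by 0.67 with orlistat against the obese control. In that list 3 rose and 4 fell with orlistat, and 2 and 5, 3 and 3, and 3 and 4 at the low, medium and high doses. In TPM these were 4 and 3, 3 and 4, 3 and 0, and 5 and 1. The share of this list called was 66.7% at the medium dose and 77.8% in the obese control and the other treated groups.

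Among 12 steroid receptors and binding proteins, 4 rose and 5 fell in the obese control. Against it 4 rose and 7 fell with orlistat, and 2 and 6, 2 and 6, and 3 and 6 at the low, medium and high doses. In TPM these were 6 and 5, 3 and 6, 4 and 6, and 6 and 4. The share called was 75.0% in the obese control, 91.7% with orlistat and 66.7%, 66.7% and 75.0% at the 3 doses. Among all tested genes it was 55.1%, 51.8%, 33.0%, 41.9% and 51.9% in the same order. Fkbp4, an immunophilin of steroid receptor complexes, rose by 1.10 in the obese control and fell by 0.64 with orlistat. Serpina6, the corticosteroid-binding globulin, rose by 0.37 in the obese control and fell by 0.44 with orlistat and 0.31, 0.35 and 0.55 at the low, medium and high doses. Of 6 other aldo-keto reductases, 3 rose and 2 fell in the obese control (1 and 3 after rescaling to TPM). In the treated groups 1 rose and 2 fell with orlistat, 1 and 1 at the low dose, 1 and 1 at the medium dose and 2 and 2 at the high dose (3 and 1, 1 and 0, 3 and 1, and 3 and 1 in TPM). Akr7a3, an aflatoxin aldehyde reductase, fell by 0.73 in the obese control and rose by 0.67 at the high dose. Akr1b7 rose by 0.96 at the low dose, at 2.49 FPKM. Its means in the other groups were 0.0620 to 0.796 FPKM, so it passed the filter only through the low dose libraries and its rise was fixed by the filter.

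**Figure D4:**
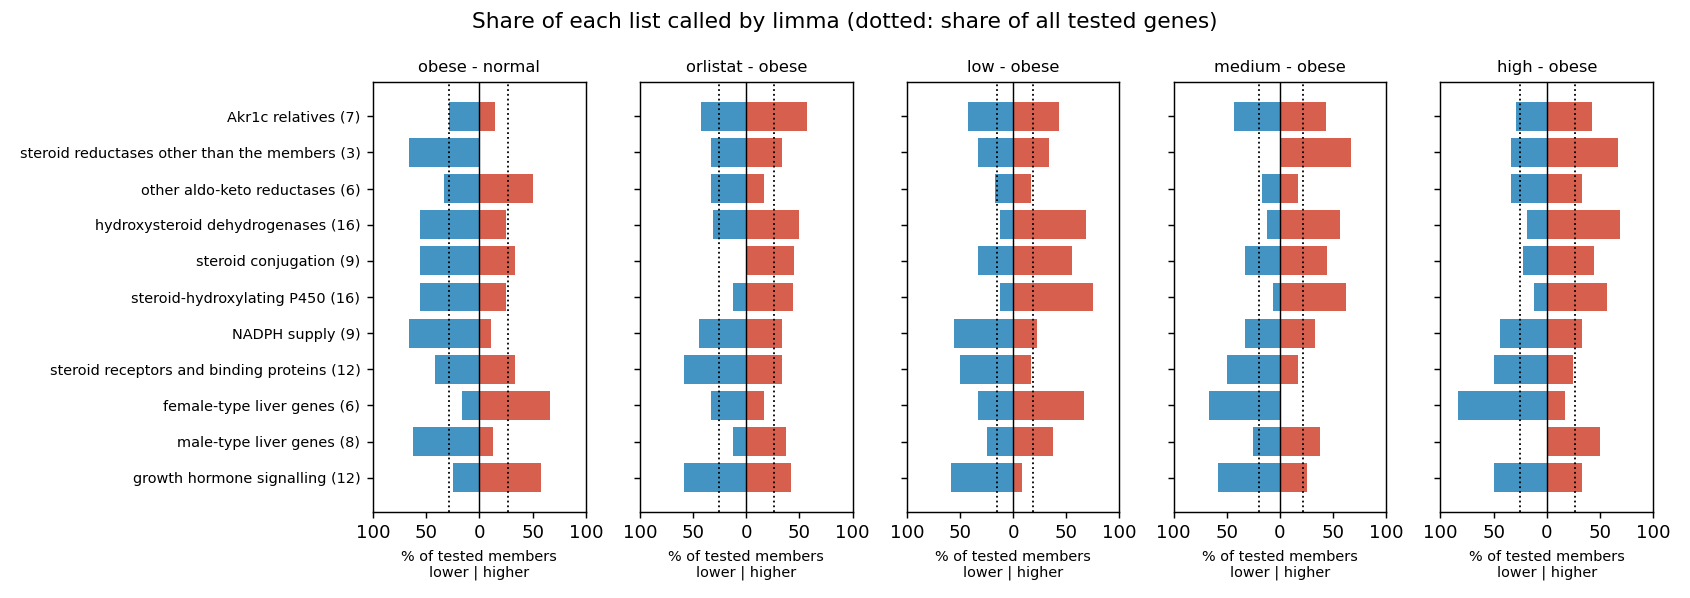
Share of the tested genes of each list that limma called higher (red, to the right) or lower (blue, to the left) in 5 comparisons, with the number tested in brackets and the share of all tested genes as dotted lines. Hydroxysteroid dehydrogenases have 9 of 16 to the left in the obese control and 11 of 16 to the right at the low and high doses; female-type genes turn from 4 of 6 to the right in the obese control to 5 of 6 to the left at the high dose. A1bg, which passed the filter only through the obese control, is among these female-type genes.

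Rat liver expresses many steroid enzymes in a male or female pattern set by growth hormone, and Srd5a1 is female-biased. Of 6 other female-type genes 4 rose and 1 fell in the obese control (4 and 2 in TPM), with a median of 0.84. With orlistat 1 rose and 2 fell (3 and 2 in TPM; median -0.08), and at the low dose 4 rose and 2 fell (median 0.15). At the medium dose 0 rose and 4 fell (median -0.94), with 1 rising at an unadjusted p under 0.05 or with voom, and 2 rising after rescaling to TPM. At the high dose 1 rose and 5 fell (median -0.83). The share of these 6 genes called was 83.3% in the obese control, against 55.1% of all tested genes. It was 66.7% at the medium dose, against 41.9%, and 100% at the low and high doses, against 33.0% and 51.9%. With orlistat the share was close to that of all tested genes (51.8%), but in TPM 3 of the 6 rose and 2 fell. Of all 11945 tested genes TPM called 4989 higher and 1566 lower there. The place of this list with orlistat thus depends on the scale. The prolactin receptor gene Prlr rose by 0.95 in the obese control and fell by 1.79 at the medium and 2.10 at the high dose. Cyp2c7, a female-biased cytochrome, rose by 0.73 in the obese control and fell by 0.57 and 0.67 at those doses, and its level of 2041 ± 27.0 FPKM in the obese control compared with 1377 ± 19.3 and 1281 ± 53.9. Cux2, a female-type repressor, rose by 1.02 in the obese control, from 0.477 to 1.99 FPKM, and fell by 0.93 with orlistat and by 1.32 and 0.99 at the medium and high doses. Cux2 passed the filter only through the obese control and low dose libraries, so these directions were fixed by the filter. A1bg, a plasma protein, rose by 1.30 in the obese control and fell in all 4 treated groups, with differences between -1.44 and -1.13, but it reached only 1.85 FPKM. With means of 0.0535 to 0.304 FPKM in the other groups, A1bg passed the filter only through the obese control libraries. Its directions were thus fixed by the filter, and A1bg is part of the counts of this list. Cyp2c12, the female-specific steroid sulfate hydroxylase, ran the other way between the controls, at 30.1 ± 1.79 FPKM in the normal and 19.98 ± 3.41 in the obese control (SD, n = 3). It held 23.8 ± 0.53 with orlistat, 23.2 ± 2.10 at the medium dose and 34.8 ± 1.51 at the high dose, and it rose by 1.28 at the low dose, to 49.5 ± 1.58.

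Of 8 male-type genes 1 rose and 5 fell in the obese control. With orlistat 3 rose and 1 fell, at the low dose 3 and 2 (3 and 1 in TPM), at the medium dose 3 and 2, and 4 rose and 0 fell at the high dose by limma (5 and 0 at an unadjusted p under 0.05, 6 and 0 with voom and after rescaling to TPM). The share of these 8 genes called was 75.0% in the obese control, against 55.1% of all tested genes. It was 62.5% at the low and medium doses, against 33.0% and 41.9%. It was close to that of all tested genes with orlistat (51.8%) and at the high dose (51.9%). At the high dose 6 of the 8 were called with voom and in TPM. Of all 11945 tested genes voom called 4006 higher and 2124 lower there, and TPM gave 5176 and 1476. The place of this list at the high dose thus depends on the scale. Growth hormone signalling moved in both directions. Of 12 genes 7 rose and 3 fell in the obese control, and 5 rose and 7 fell with orlistat (5 and 4 in TPM). At the low, medium and high doses 1 rose and 7 fell, 3 and 7, and 4 and 6 (2 and 6, 3 and 6, and 7 and 2 in TPM). The share of these 12 genes called was 83.3% in the obese control and at the medium and high doses. It was 100% with orlistat and 66.7% at the low dose. Each was above the share of all tested genes. Onecut1, a liver transcription factor induced by growth hormone, fell by 2.04 in the obese control and rose by 1.07 at the high dose. The inhibitors Cish and Socs2 fell by 1.65 and 1.71 with orlistat, and Socs2 by 1.71 at the medium dose. Bcl6, a male-biased repressor, fell by 1.64 at the high dose. Neither Akr1c2 nor Srd5a1 was used in these counts.

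Over the 18 libraries the tested genes most like Akr1c2, by Pearson's r of log2(FPKM + 1), were Gadd45g (0.98), Atp2b2 (0.97), Slc28a2 (0.97), Hdc (0.96), Serpina1 (0.96) and Tspan14 (0.96). All were highest in the obese control: Gadd45g, a stress-induced growth arrest gene, stood at 77.3 ± 2.34 FPKM there and 23.5 ± 1.23 in the normal control, and Hdc, the histamine-forming enzyme, at 11.8 ± 0.46 and 1.26 ± 0.25. Atp2b2 held 1.36 to 1.48 FPKM in the obese control and at most 0.725 in any other library. It passed the filter only through the obese control libraries, so its highest group was fixed by the filter. The genes most opposite were Cobl (-0.97) and the clock-related Tef (-0.97) and Cry2 (-0.97), all lowest in the obese control. Libraries of a group share their condition, so these values rest on 6 groups rather than 18 independent points.

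Most like Srd5a1 were Prlr (0.96), Pla2g16 (0.91), Timd2 (0.91), Mcfd2 (0.88), Zfp36 (0.87) and Pkdcc (0.87). Prlr, found above among the female-type genes, held 8.38 ± 0.04 FPKM in the normal control, 17.1 ± 0.29 in the obese control, 15.5 ± 0.96 with orlistat, 19.9 ± 1.26 at the low dose, 4.23 ± 0.51 at the medium dose and 3.23 ± 0.18 at the high dose. Its 2 lowest groups were those of Srd5a1, and its normal control lay between them and the rest. The most opposite gene was Amacr (-0.96), a racemase of bile acid and branched fatty acid metabolism, at 192 ± 1.87 FPKM in the obese control and 241 at both the medium and high doses.

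**Figure D5:**
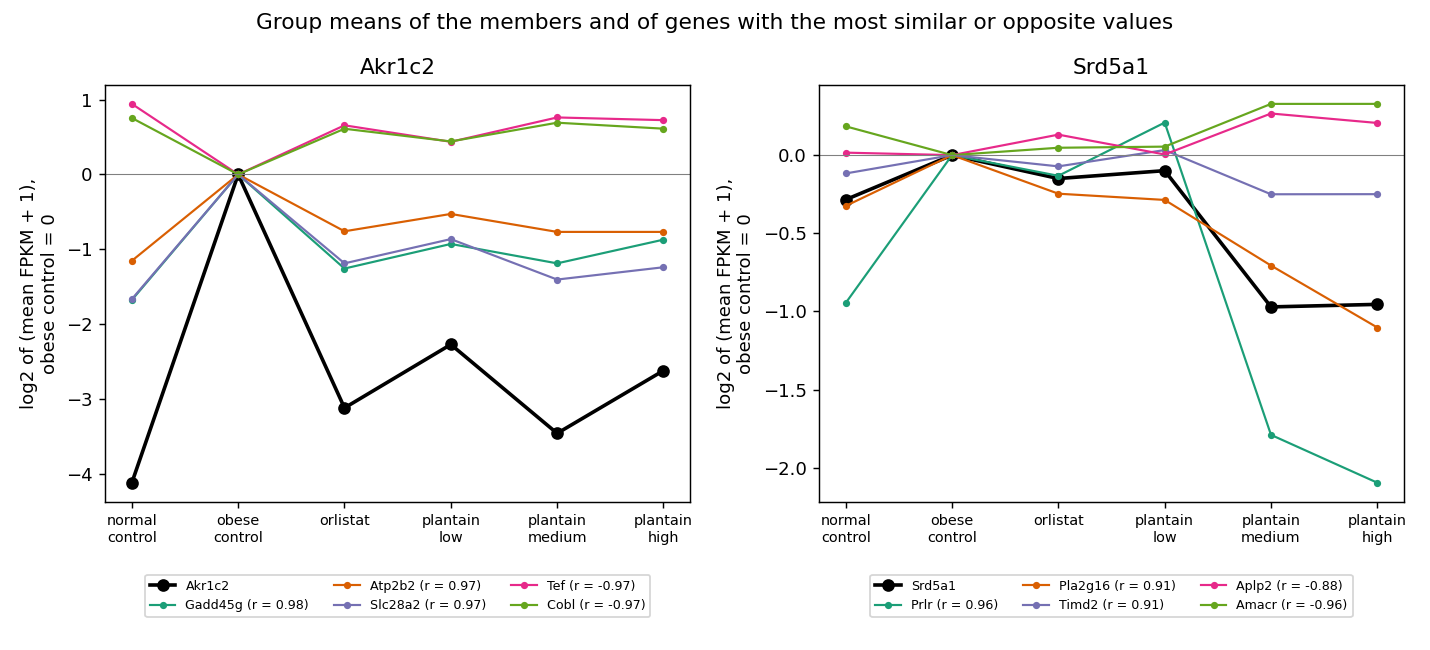
Log2 of the group mean FPKM + 1 relative to the obese control for Akr1c2 (left) and Srd5a1 (right), in black, with the 3 genes of highest and the 2 of lowest Pearson's r over 18 libraries; lines join groups only to guide the eye. Akr1c2 lies below its likest genes in every group but the obese control, and Prlr drops further than Srd5a1 at the medium and high doses.

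Reads recovered from the FPKM numbered 16.6 to 26.2 M per library, and Pearson's r of log2(FPKM + 1) was at least 0.989 between libraries of a group and at most 0.988 between groups. All 12 hepatocyte markers were present, at a sum of 81560 to 100058 FPKM. All 12 Kupffer cell markers rose in the obese control, 11 rose at the low dose, and 10 and 9 fell at the medium and high doses. Of all tested genes 26.7%, 18.3%, 20.1% and 25.3% were called in those directions. Unlike Srd5a1, these markers summed highest at the low dose and lowest in the normal control. Their summed level was 206 to 208 FPKM in the normal control, 337 to 349 in the obese control, 353 to 373 with orlistat, 427 to 438 at the low dose, 283 to 293 at the medium dose and 291 to 297 at the high dose, and none was at 0. Endothelial markers rose in the obese control (6 of 10) and in every treated group (8 or 9 of 10). Of all tested genes 26.7% were called higher in the obese control and 18.3% to 26.6% in the treated groups. The endothelial sum was 63.0 to 64.2 FPKM in the normal control and 136 to 138 at the high dose. Steroid-making cells of the adrenal or gonad were nearly absent, with 9 markers summing to 4.40 to 18.3 FPKM and Mc2r at 0 in all groups. The share of reads from mitochondrially encoded genes was highest in the obese control, 8.11% ± 0.26, against 6.45% ± 0.23 in normal controls and 4.64% ± 0.06 at the high dose (SD, n = 3). Akr1c2 was highest in the obese control too, and so was Srd5a1 in FPKM but not in TPM. The part of these cell types and of this share in the levels of either member was not tested, and in bulk liver fewer cells of a type and less RNA per cell cannot be told apart.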

How the data were processed

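Liver RNA from 18 libraries was analysed, 3 for each of the 6 groups, with groups and replicate numbers taken from the labels. Libraries were made with an Illumina kit from 1 µg of RNA, per the labels' protocols. CASAVA 1.7, Bowtie 0.12.2 and mm8, which is a mouse build, are named in the submitters' processing notes, while the identifiers are of the rat, whose build is not stated there. The authors deposited FPKM per gene and library, with gene length, coordinates and symbol per the file headers. In 100% of values FPKM times length came out as whole steps (tolerance 0.001), which gave 16.6 to 26.2 M (mega) reads per library; the total behind the authors' scaling was 0.966 to 1.05 times that sum, by a factor that differed between groups and that the labels and headers do not explain. All 18 value columns were used.

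The 11945 genes at 1 FPKM or more in 3 or more samples were taken as log2(FPKM + 1) and fitted in 1 model of 6 groups with limma 3.58.1 (R 4.3.3) with a mean-variance trend; tests were two-sided and adjusted by Benjamini-Hochberg over all genes tested, with a threshold of 0.05. For 1 gene, an exact permutation test of 3 libraries against 3 cannot go below 0.1. The script was tested on simulated data. Akr1c2 and Srd5a1 were among the genes fitted, but no p-value of theirs is used. Members and gene lists were chosen with earlier results of these data known. Named genes are all Akr1c rows, the other steroid reductases, up to 4 genes per list and comparison with the smallest p among those past the threshold without overlap, and the 6 highest and 3 lowest by Pearson's r with each member. Alternatives were another pseudocount (0.1), no filter, TPM, quantile scaling, each comparison on its own groups, a replicate block, each library left out, and voom (limma) on recovered reads, added after seeing the data. edgeR and DESeq2 were planned for recovered reads and not run, since the deposited unit is FPKM.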

Additional observations from a re-analysis of the deposited data

How the results depend on the processing

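The number of steroid genes called in each of the 7 comparisons stayed within 1.5 times under every alternative run, and so did the range with each library left out: 72 to 75 for obese against normal control (75 with all libraries), 64 to 69 for orlistat (72), 66 to 70 for the low dose (73), 63 to 69 for the medium dose (68), 67 to 70 for the high dose (73), 51 to 55 for high dose against orlistat (57) and 70 to 76 for the dose trend (74). With the replicate number as a block the counts were 74, 70, 70, 68, 73, 56 and 74. The numbers only name libraries: over 45 pairs with the same number the correlation of deviations ran from -0.09 to 0.07, and 4 of 18 libraries correlated best with their own number. edgeR and DESeq2 were not run.

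The sum of all Akr1c rows ran opposite to Akr1c2 for the controls and for high dose against orlistat. Akr1c2 was 0.461% of that sum in the normal control and 9.87% in the obese control, so the sum mostly reflects its relatives. The summed differences were -0.0569 for obese against normal control, -0.0148 with orlistat and -0.0381, -0.0594 and -0.0321 at the low, medium and high doses. For high dose against orlistat the sum gave -0.0173. Akr1c2 itself reversed under no alternative. A pseudocount of 0.1 gave 4.34 between the controls, -3.22 with orlistat and -3.59 at the medium dose. With orlistat it was -3.00 in TPM, -3.03 in recovered reads and -3.07 after quantile scaling, and at the high dose -2.48 in TPM. Srd5a1 against the normal control was 0.16 in TPM, 0.24 in recovered reads and 0.26 after quantile scaling. With orlistat those values were 0.0188, -0.0613 and -0.0412, at the medium dose -0.88, -0.91 and -0.90, and at the high dose -0.78, -0.88 and -0.86; at the low dose TPM gave -0.0573 and quantile scaling -0.0529. These rescalings change the level by construction; why the deposited totals differ was not tested.

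Of 873 values of 97 named pairs of gene and comparison, 862 kept their direction and call, 10 lost the call (Tecr with orlistat and at the low dose, Akr1c15 at the low and medium doses, Cyp2c7 and Cux2 at the low dose, Srd5a3 at the high dose) and 1 reversed, Tecr at the high dose (0.0064 in TPM). For the fits with 1 library left out, the 873 values hold only the lowest and highest difference of each pair. Over all those fits further calls of Akr1c15 and Srd5a3 were lost, as given above. Srd5a3 rested on 45 to 82 reads per library and Akr1c12l1 on 2 to 17.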
